A study of Mus musculus with 2 samples.

Results

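Genes that build the ciliary transport machinery and the centrosome were examined in testes of 17 day old mice, with and without UBR2. The genes were taken by name: intraflagellar transport (Ift), Bardet-Biedl syndrome (Bbs and Ttc8), the ciliary GTPase gene Arl3, the transition zone genes of the ciliary base (Tctn), and the centrosome genes Cep, Cetn, Pcm1, Cntrl, Nin, Nde1, Ndel1 and Tubg. On the array 69 of 20380 probe sets with 1 gene symbol matched, and they read 46 of 12393 genes. Names such as Arl6, Pcnt, Ninl, Mks1, Nphp and Ttc21 were also sought, and no probe set with 1 gene symbol matched them. Of the 46 genes, 41 were bright enough to be compared, among 8091 compared genes in all. The 41 were 16 transport genes, 3 transition zone genes and 22 centriole and centrosome genes.

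Total RNA came from testes of wild type mice and of UBR2-/- mice, which lack UBR2, an E3 enzyme that recognises N-degrons and attaches ubiquitin; both groups were of mixed 129SV and C57BL background. For each genotype the labels name 2 testes, from different individuals of a litter, and 1 Affymetrix Mouse Genome 430A 2.0 array (n = 1). The sources used here do not say whether RNA of these testes was pooled. The labels name no tissue-specific deletion. With 1 array per genotype there is no replicate check and no test: every difference compares these arrays, and ratios are UBR2-/- over wild type.

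A primary cilium or flagellum is built at its tip, from parts made in the cell body. Intraflagellar transport carries them: trains of IFT-B and IFT-A proteins move outward with kinesin-2 and return with dynein-2. The BBSome is a cargo adaptor on these trains, ARL3 releases lipid-bound cargo inside the cilium, and the transition zone is the gate at its base. The base itself is a centriole, which in dividing cells sits in the centrosome and helps organise the spindle. In testis the flagellum of the sperm is assembled after meiosis, while transcripts of many of its components are made earlier, in spermatocytes.

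The signal is the authors' linear intensity of a probe set, and each gene is given by its brightest probe set. A signal under the 40th percentile of its array, 24.4 for wild type and 24.7 for UBR2-/-, was raised to that floor before the log2 ratio was taken. Where a gene had several probe sets, their disagreement gave an SD per probe set, on the log2 ratio, of 0.26 for dim signals, 0.19 at middle signals and 0.13 for bright ones (estimated from the median absolute deviation). It leaves out any error between arrays or animals. Ubr2 itself, read by 1 probe set, went from 57.2 in wild type to 14.3 in UBR2-/-, at least 2.32-fold lower; where that probe set lies relative to the deletion is not stated. The tissue markers were present: the spermatocyte gene Sycp3 had 2954.7 and the Sertoli cell gene Sox9 had 109.4 on the UBR2-/- array.

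All 16 transport genes had a lower signal on the UBR2-/- array, and 5 of them were at least 2-fold lower. Over all compared genes 3.52% were at least 2-fold lower and 41% had any log2 ratio below 0. The median log2 ratio of the transport genes was -0.65, or 1.57-fold lower, against a median of 0.07 over all compared genes. Every one of the 16 lay below the 25th percentile of all compared genes, which was -0.17. All 20 probe sets of these genes had a lower UBR2-/- signal, but they are repeat readings of the same genes on the same arrays. Of 45 probe sets of the centriole and centrosome genes, 30 had a lower UBR2-/- signal. Some of the 45 were below the floor on both arrays, which was true of no transport probe set, so these counts are not directly comparable.

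Among the centriole and centrosome genes the picture was mixed. Of 22 compared, 14 had a log2 ratio below 0 and 8 above it, and the 2-fold threshold was passed by 1, Cetn1, on the lower side. That share, 4.55%, was near the 3.52% of all compared genes. The median log2 ratio of the 22 was -0.25, and -0.23 without Cetn1. All 16 transport genes lay below that median, while 4 of the 22 centriole and centrosome genes lay below the transport median. The groups overlapped, as 11 of the 22 lay below the highest transport gene. Of the 22, 12 lay below the 25th percentile of all compared genes and 17 below their median, so this group was also shifted down. In the whole set of 41, 7 were at least 2-fold lower (5 transport genes, Cep290 and Cetn1). That was 17.1%, against 3.52% of all compared genes, and 0 were at least 2-fold higher, against 0.346%. At 3-fold 1 member, Cetn1, was lower and 0 were higher, with 1.5% and 0.0371% of all compared genes past that threshold. At a threshold of 1.5-fold, 15 members were lower, 10 of them transport genes, and 1 was higher, against 7.71% and 4.21% of all compared genes.

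**Figure D1:**
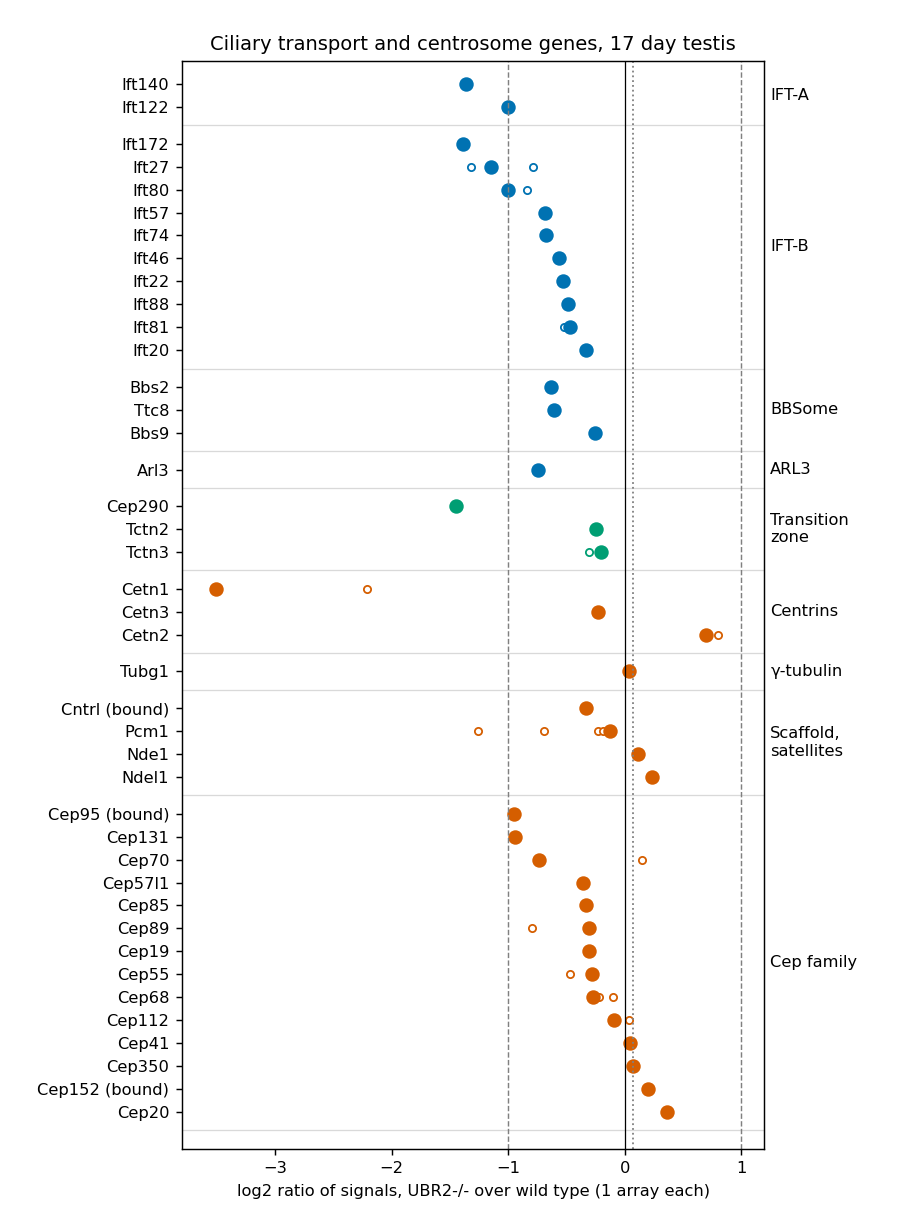
Log2 ratio of signals, UBR2-/- over wild type, for each of the 41 compared genes, with 1 array per genotype; filled points are the brightest probe set, open points the other probe sets of the gene that were not below the floor on both arrays. Dashed lines mark 2-fold, the dotted line is the median of all compared genes (0.07) and "bound" marks a gene at the floor on 1 array; the 16 transport genes (blue) all lie to the left of 0.

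The IFT-A complex, which serves return transport and the entry of membrane proteins, was read by 2 genes, both at least 2-fold lower. Ift140 had a wild type signal of 656.6 and a UBR2-/- signal of 255.1, 2.57-fold lower (log2 ratio -1.36). Ift122 had 215.7 and 107.5, 2.01-fold lower, and so lay at the threshold.

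The IFT-B complex, which carries outward traffic, was read by 10 genes of the set, with a median log2 ratio of -0.62. Of the 10, 3 were at least 2-fold lower (30%, against 3.52% of all compared genes). Other IFT-B subunit genes, which the rule does not take, are given further below with other genes of the same structures. Ift172, the largest subunit, had 322.1 and 123.1, 2.62-fold lower (-1.39). Ift27, a small GTPase within the complex, had 262 and 118.2, 2.22-fold lower (-1.15), and its other probe sets gave -1.32 and -0.78, the last at the floor on the UBR2-/- array. Ift80 had 430.9 and 215.3, 2.00-fold lower, and its other probe set gave -0.84. These 3 stood at the low end of the 10 genes, and Ift80 was at the threshold.

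The other 7 IFT-B genes lay within 2-fold and all below 0. Ift74, which with Ift81 forms the module that binds tubulin, had 843.1 and 529.4 (log2 ratio -0.67), and Ift81 had 477.1 and 344.4 (-0.47). Ift57, which has been linked to the kinesin-2 motor, had 228.2 and 142.2 (-0.68). Ift46 had 347.4 and 235.7 (-0.56), Ift22 had 262.7 and 182.5 (-0.53), and Ift88, a core subunit needed for flagellum assembly, had 291.6 and 208.6 (-0.48). Ift20, the subunit also found at the Golgi, was the IFT gene nearest to 0, with 393.5 and 313.1 (-0.33). The 12 IFT genes of the set, from both complexes, thus ran from -1.39 to -0.33.

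The 3 BBSome genes of the set were all lower and none reached 2-fold. A further BBSome subunit gene that the rule does not take, Bbip1, was higher, with 40.7 and 58.7 (log2 ratio 0.53). Bbs2 had 237.1 and 152.9 (log2 ratio -0.63) and Ttc8, the gene of subunit BBS8, had 203.5 and 133.9 (-0.60). Bbs9 had 140.1 and 117.6 (-0.25), the transport gene nearest to 0. Arl3, the GTPase of cargo release, had 795.3 and 475.1, 1.67-fold lower (-0.74).

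**Figure D2:**
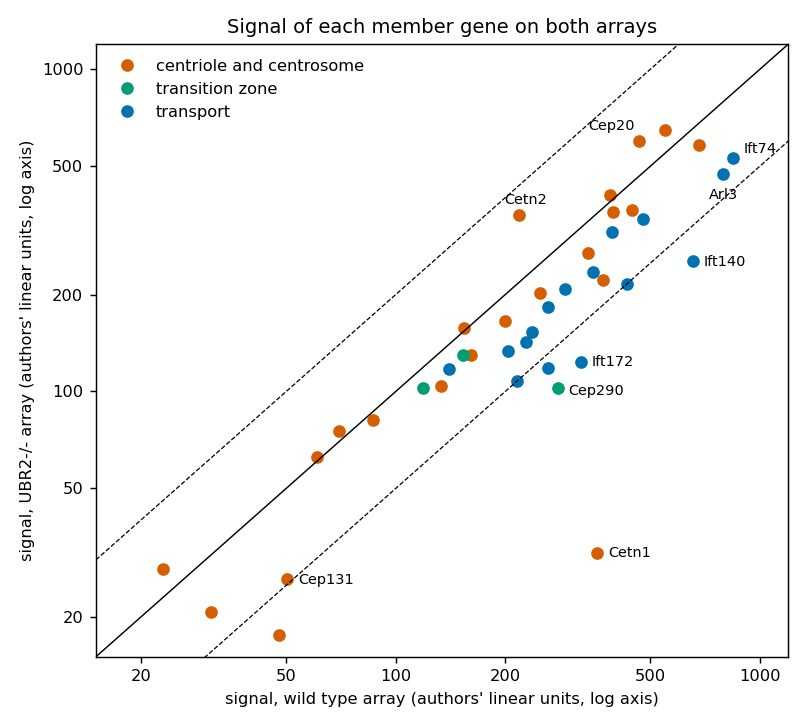
Signal of each compared member gene on the wild type array (x axis) and the UBR2-/- array (y axis), in the authors' linear units on log axes; the solid line is equality and the dashed lines are 2-fold. All transport genes (blue) lie under the line of equality, Cetn1 (357.9 and 31.5) lies far under the 2-fold line and Cetn2 (218.3 and 354.2) lies above equality.

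Promoters of some transport genes are shown because all transport genes were lower on the same array. Some were chosen for a motif match, so the printed lines do not give the share of transport genes with one. Sequences are those of RefSeq on build GRCm38.p6, in a table that holds 250 bases before and 50 bases after a gene's start and listed 38 of the 46 member genes. Each line gives the 120 bases before the start and the 20 after it, 5′ to 3′ on the gene's strand. Capitals mark matches on either strand to the X-box of RFX transcription factors and to its short form GTTGCC. The X-box was searched as 14 letters, GTNNCC and GNAAC with 3 bases of any kind between them (N is any base). No other spacing of the X-box was searched. Shown are the 3 listed IFT genes that were at least 2-fold lower, the 2 IFT genes with an X-box match, and Cetn2, the member highest above 0.
Ift172, chr5:31291095-31291234, minus strand: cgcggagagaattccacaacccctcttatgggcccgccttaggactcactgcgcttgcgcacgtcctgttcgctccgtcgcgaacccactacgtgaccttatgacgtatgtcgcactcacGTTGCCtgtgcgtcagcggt
Ift140, chr17:25015966-25016105, plus strand: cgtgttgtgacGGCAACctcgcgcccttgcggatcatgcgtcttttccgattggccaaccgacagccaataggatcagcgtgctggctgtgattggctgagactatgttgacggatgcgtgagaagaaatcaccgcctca
Ift27, chr15:78174062-78174201, minus strand: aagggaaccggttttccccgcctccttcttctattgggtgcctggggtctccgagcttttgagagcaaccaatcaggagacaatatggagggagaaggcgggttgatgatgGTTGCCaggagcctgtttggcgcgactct
Ift57, chr16:49699174-49699313, plus strand: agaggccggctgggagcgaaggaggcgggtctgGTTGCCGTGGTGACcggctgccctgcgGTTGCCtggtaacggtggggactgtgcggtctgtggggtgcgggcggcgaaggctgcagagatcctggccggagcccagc
Ift22, chr5:136908030-136908169, plus strand: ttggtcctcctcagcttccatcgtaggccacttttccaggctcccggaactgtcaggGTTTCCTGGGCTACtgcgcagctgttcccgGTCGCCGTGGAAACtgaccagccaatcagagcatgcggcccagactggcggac
Cetn2, chrX:72918325-72918464, minus strand: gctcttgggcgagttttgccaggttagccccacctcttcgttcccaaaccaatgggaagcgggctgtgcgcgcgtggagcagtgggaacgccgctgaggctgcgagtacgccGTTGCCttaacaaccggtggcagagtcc

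In Ift172 the short motif began at the start site itself, in Ift27 it began 9 bases before it, and in Cetn2 8 bases before it. In Ift140 it lay on the reverse strand, 109 bases before the start. Ift57 held an X-box match 87 bases before the start, whose letters include a short motif, and a further short motif 60 bases before it. Ift22 held X-box matches 63 and 33 bases before the start and no GTTGCC. Over the whole 300-base windows, the X-box was found in 2 of 13 listed transport genes (15.4%), in 5 of 38 members (13.2%) and in 2.49% of the 27025 genes of the table. The short motif was found in 5 of 13 transport genes (38.5%), 13 of 38 members (34.2%) and 14.1% of all genes of the table. Among the 4 listed members at least 2-fold lower, the X-box was found in 0 and the short motif in 3. The MYB factor motif CAGTTG, also searched on both strands, was found in 1 of 13 transport genes, 6 of 38 members (15.8%) and 15.4% of all genes; its last 4 letters, GTTG, are the first 4 of the short RFX motif, so the matches can overlap. A match describes letters only, and the X-box counts cover only the spacing that was searched. Genes with a match lay on both sides of 0, as Ift172 at -1.39 and Cetn2 at 0.70 show.

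At the transition zone, Cep290, a large protein that links the gate's microtubules to the membrane, had 278.9 and 102.5 and was 2.72-fold lower (log2 ratio -1.44). It was the lowest member after Cetn1. The tectonic genes Tctn2 and Tctn3, which encode membrane-associated parts of the gate, had 153.3 and 129.6 (-0.24) and 118.5 and 102.8 (-0.21). The median of these 3 genes was -0.24, so Cep290 stood apart from the tectonics.

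The centrins, small calcium-binding proteins of the centriole, went both ways. Cetn1, the germ cell member and an intronless copy of Cetn2, had 357.9 and 31.5 and was 11.4-fold lower by its brightest probe set (log2 ratio -3.51). It ranked 8 from the lowest of 8091 compared genes. Its other probe set had 114.2 and 22.1, with a ratio of -2.21 that is bounded by the floor. The size of this fold depends on the floor: with a 60th percentile floor the log2 ratio of Cetn1 was -1.9996. Cetn2, the X-linked parent gene and the X-linked member of the set, went the other way, with 218.3 and 354.2, 1.62-fold higher (0.70), and 152.8 and 265.8 (0.80) in its other probe set. Cetn3 had 683.1 and 583.5 (-0.23).

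The γ-tubulin gene Tubg1, which nucleates microtubules, had 153.6 and 158 (log2 ratio 0.04). Of 4 compared scaffold and satellite genes, 2 were above 0 and 2 below it by their brightest probe sets. Ndel1 and Nde1, which work with cytoplasmic dynein at the centrosome, had 551.1 and 649.9 (0.24) and 69.7 and 75.6 (0.12). Cntrl, of the mature centriole, was dim, with 31.1 and 20.7, at least 1.26-fold lower. Pcm1, which builds the centriolar satellites that deliver centrosome proteins, had 394.3 and 360.7 (-0.13) by its brightest probe set. Its 5 probe sets disagreed by more than 1 log2 unit: the next brightest had 396.2 and 245.4 (-0.69), and another had 117.6 and 49.2 (-1.26), while the remaining 2 gave -0.23 and -0.18. All 5 were lower on the UBR2-/- array.

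Of 14 compared Cep genes of the centrosome, 10 were below 0 and 4 above it. By the main floor 0 were counted as at least 2-fold lower or higher, against 3.52% and 0.346% of all compared genes. The lowest Cep genes were dim. Cep95 had 47.7 and 17.5, at least 1.93-fold lower, a bound that leaves a change past 2-fold possible: with a 25th percentile floor its log2 ratio was -1.45. Cep131, a satellite protein needed for the sperm flagellum, had 50.4 and 26.2 (log2 ratio -0.94), just above the floor, and -1.02 after loess. Cep70 had 370.8 and 222.2 (-0.74), but its other probe set, at 51.1 and 56.6, gave 0.15.

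By their brightest probe sets, a middle group of 6 Cep genes lay between -0.35 and -0.27. These were Cep57l1 (-0.35), Cep85 (-0.33), Cep89 (-0.30), Cep19 (-0.30), the cytokinesis gene Cep55 (-0.28) and Cep68 (-0.27), which helps hold the centrioles together. The other probe set of Cep89 had 49.4 and 28.5 (-0.79). Nearest to 0 were Cep112 at -0.09, Cep41 at 0.04 and Cep350 at 0.07. Cep20 was the highest Cep gene, with 466 and 598.7 (0.36). Cep152, which recruits the kinase of centriole duplication, had 22.9 in wild type, which is below the floor, and 28.1 in UBR2-/-, at least 1.15-fold higher. The genes Cep164, Cep250, Cep295nl, Nin and Tubg2 were too dim to be compared.

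**Figure D3:**
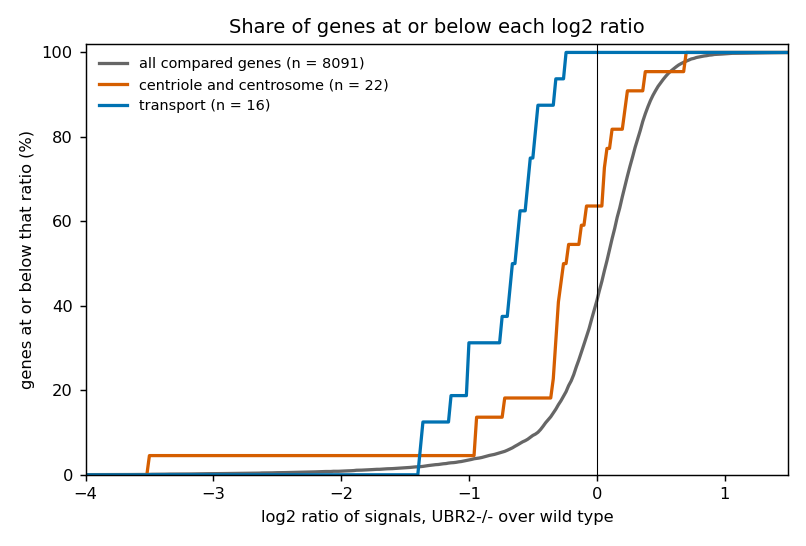
Percent of genes at or below each log2 ratio (UBR2-/- over wild type, 1 array each) for all 8091 compared genes, the 22 centriole and centrosome genes and the 16 transport genes. The transport curve reaches 100% before 0, and the centriole and centrosome curve lies between the others except at its ends, where Cetn1 (-3.51) and Cetn2 (0.70) stand.

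Other genes of the same structures, whose names the rule does not take, were read from lists. The lists held 44 names for transport, 19 for the transition zone and 45 for the centriole and centrosome, and not all were read. Of 26 transport partners read, all of them compared, 2 were at least 2-fold lower (7.69%, against 3.52% of all compared genes) and 0 higher. Listed transport genes such as Dync2h1, Wdr19, Wdr35, Ttc26 and Traf3ip1 were not among the 26. Of the 26, 15 were below 0 and 11 above, and the median log2 ratio was -0.09. The 2 were Mak, a kinase that controls ciliary length and is active in germ cells, with 33.7 on the UBR2-/- array and a ratio of -1.59 (its other probe set gave -0.54), and Ttc30a1, an IFT-B subunit gene, with 330.9 and 141 (-1.23). Its paralog Ttc30b had 73.7 and 63 (-0.23). Cluap1, the gene of IFT38, had -0.65. Hspb11, the gene of IFT25, which pairs with IFT27 in the complex, had 309.7 and 301.1 (-0.04), where Ift27 had -1.15. The kinesin-2 motor genes were all within 2-fold, with Kif3a at -0.40, Kif3b at -0.31, Kifap3 at -0.06, Kif3c at 0.04 and Kif17 at 0.35. The BBSome subunit gene Bbip1 had 40.7 and 58.7 (0.53).

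Of 9 compared transition zone partners, 2 were at least 2-fold lower (22.2%, against 3.52% of all compared genes) and 0 higher. Their median was 0.01. Rpgrip1, a scaffold of the zone, had 125.6 and 15.7, at least 5.09-fold lower by the brightest of its 4 probe sets. Ahi1 had 322.7 and 144.5 (-1.16), and its other probe set gave -0.78, short of 2-fold. Of 29 compared centriole and centrosome partners, 1 was at least 2-fold lower and 0 were higher. The share lower, 3.45%, was near the 3.52% of all compared genes. The lower gene was the δ-tubulin gene Tubd1, at 92.6 and 44.7 (-1.05). The median of the 29 was -0.18. The 3 probe sets of Odf2 disagreed, from -2.25 to -0.12.

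Of the transcription factors of ciliary and spermatocyte genes, 3 were bright enough to be compared. Rfx2, an X-box factor of spermatocytes, had 122.8 and 60.7, 2.02-fold lower (log2 ratio -1.02). Tcfl5 had 1709.9 and 834.7, 2.05-fold lower (-1.03), and Mybl1, the MYB factor of pachytene spermatocytes, had 89.2 and 48.4 (-0.88). Foxj1, Rfx1, Rfx3 and Myb were below the floor on both arrays.

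**Figure D4:**
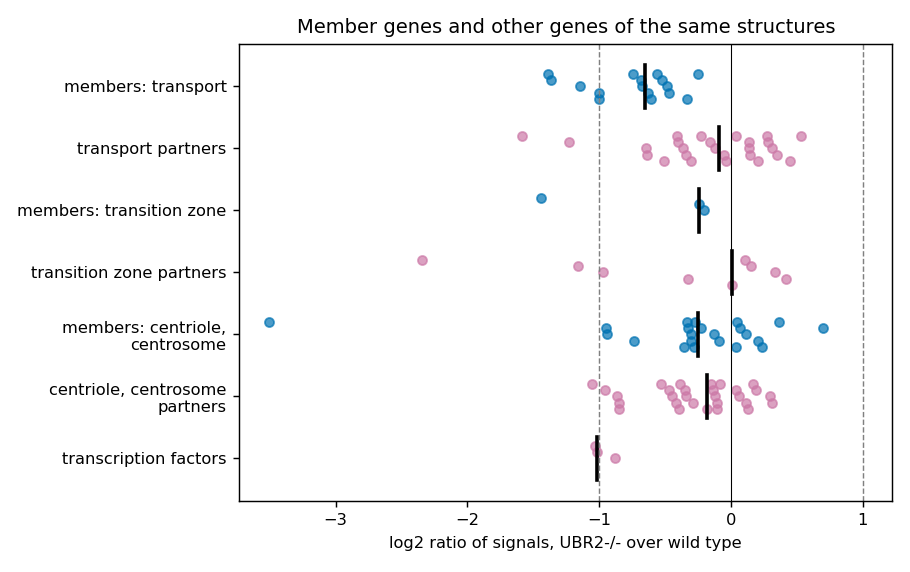
Log2 ratios of signals (UBR2-/- over wild type, 1 array each) of the member genes (blue) and of listed partner genes (pink) by structure; each point is a gene, the black bar is the median and the dashed lines are 2-fold. The median is -0.65 for transport members and -0.09 for transport partners, and it is -0.25 and -0.18 for centriole and centrosome members and partners. Listed partners that were not read or not compared are not shown.

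Marker genes of cell types also differed between the arrays. These marker lists were chosen with earlier results of these data known. Counts and sums cover the listed markers that were read on the array. In a bulk tissue, fewer cells of a type and less RNA per cell cannot be told apart. Of 19 compared markers of pachytene and later spermatocytes, 14 were at least 2-fold lower and all 19 were below 0, and the summed signal of the listed markers went from 13769.5 in wild type to 3182.4 in UBR2-/-. Mybl1 is in this list too. The median log2 ratio was -2.12, and Ldhc, the germ cell lactate dehydrogenase, was 8.62-fold lower. The 13 early meiotic markers had a median of -0.08 and sums of 11666.7 and 10779.7, with 1 at least 2-fold lower. Of 10 compared spermatogonia markers 1 was at least 2-fold lower, with a median of 0.29 and sums of 3637.2 and 3800 over the list. Of 12 Sertoli cell markers 10 were above 0 and 1, Amh, was at least 2-fold lower at 59.7 and 25.5 (-1.23), with a median of 0.35 and sums of 14356.7 and 18313.4, and all 8 peritubular myoid markers were above 0, with a median of 0.51 and sums of 2610.7 and 3750.9. The 5 Leydig cell markers had a median of 0.29 and sums of 1099.8 and 1165.5, and the 7 compared macrophage markers had -0.18 and sums of 859 and 783. Of 14 listed spermatid markers 11 were read, and 1 of these, Prm1, was bright enough to be compared, at 35.3 and 94. The share at least 2-fold lower was 73.7% for the pachytene and later markers and 7.69% for the early meiotic markers. It was 10% for spermatogonia and 8.33% for Sertoli cell markers, against 3.52% of all compared genes. Apart from the first, each of these shares rests on 1 gene. No marker that was read had a signal of 0. The part of these shifts in the ratios of the ciliary genes was not tested.

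The arrays were alike in scale, with a median signal of 48.7 for wild type and 48.75 for UBR2-/- over 22626 probe sets. The bacterial and phage controls above the floor (42 probe sets) had a ratio of 0.35 (log2) at their median. Scaling on them in place of the deposited scaling lowers every ratio by 0.35; 13 members were then at least 2-fold lower, against 6.53% of all compared genes. Relative to the median of all compared genes the transport genes lay 0.73 lower with the deposited and 0.72 lower with the spike-in scaling. Small values above 0 turn with it: Cep152, Cep350, Cep41, Nde1, Ndel1 and Tubg1 went below 0, while Cetn2 and Cep20 stayed above it.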

How the data were processed

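The deposited values are linear signals (intensity) of 22690 probe sets on 1 array per genotype. MAS5, which makes 1 signal per probe set, is a tool listed in the submitters' processing notes, with no version or settings stated in the sources used here. Both deposited arrays had a 2% trimmed mean of about 150.04, and this scaling was kept. The 64 control probe sets, 691 with several gene symbols and 1555 with none were left out. Symbols come from the platform annotation, which can be old; 20351 of 20380 probe sets matched RefSeq's GRCm38.p6 gene table, used for names and chromosomes.

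Signals were floored at the 40th percentile of each array, and a gene was compared if the mean of its brightest probe set over the arrays reached the mean of both floors. Where 1 array was at the floor, the fold is a lower bound, written "at least". Counts use 2-fold; no test, p-value or standard error exists with 1 array per genotype, and their number limits the precision. Every member gene may be named; of partner genes those at least 2-fold off, the transcription factors, and a few others chosen after their values were seen (Ttc30b, Cluap1, Hspb11, Kif genes, Bbip1, Odf2). Members and lists were chosen with earlier results of these data known. Calculations used Python 3.11.15, numpy 2.4.6, pandas 2.3.3 and statsmodels 0.14.6 and were tested on simulated data. Alternatives were median, quantile, loess (span 0.3) and spike-in scaling, floors at the 25th and 60th percentiles, a pseudocount of 10 with no floor, the mean over probe sets, probe sets not named _s_at, _x_at or _a_at, and thresholds of 1.5-fold and 3-fold.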

Additional observations from a re-analysis of the deposited data

How the results depend on the processing

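With spike-in scaling 13 members were at least 2-fold lower in place of 7, and the medians were -1.004 for transport, -0.59 for transition zone and -0.60 for centriole and centrosome genes, while the median of all compared genes moved by -0.35. At 1.5-fold 15 members were lower and 1, Cetn2, was higher; at 3-fold 1, Cetn1, was lower. With a 25th percentile floor, and with no floor but a pseudocount of 10, 1 member was at least 2-fold higher, Tubg2, whose signals of 3.1 and 17.2 are below the main floor. In these 2 settings 1.34% and 0.452% of all compared genes were at least 2-fold higher. Under the other scalings, floors and probe set rules the count of lower members ran from 5 of 33 compared to 9 of 41. In the same settings 2.61% to 4.10% of all compared genes were at least 2-fold lower. All 16 transport genes stayed below 0 under every alternative that kept them, and 6 of 22 centriole and centrosome genes changed sign under at least 1. Ift122 came to a log2 ratio of -0.999 with quantile normalization and -0.94 with the pseudocount, and Ift80 to -0.97 with the pseudocount and -0.92 when probe sets were averaged, short of 2-fold. Cep95 passed 2-fold with a 25th percentile floor (-1.45), the pseudocount (-1.07), loess (-1.01) and spike-in scaling (-1.30), and Cep131 with loess (-1.02) and spike-in scaling (-1.30). The mean over probe sets moved Cep70 to -0.30, Cep89 to -0.55, Pcm1 to -0.50 and Cetn1 to -2.86, and a 60th percentile floor took Cetn1 to -1.9996. Dim genes are limited by the floor. No paired analysis was possible because each genotype has 1 array.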
